A study of Mus musculus with 4 samples.

Results

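This report describes 8 intermediate filament genes of the mouse brain, chosen by name: Gfap, Vim, Nes and Synm, whose proteins are known from glia, progenitors and blood vessels, and Nefl, Nefm, Nefh and Ina, which encode the neurofilament proteins. All 8 were found among the 46983 genes of the deposited single-nucleus count tables. The libraries were made from forebrain hemispheres of male C57Black/6 mice of 3 months of age: 1 library each from sham control mice and from mice at 1, 3 and 7 days after lasting middle cerebral artery occlusion (MCAO), in which the artery was coagulated and cut. Each library pooled the nuclei of 3 hemispheres, so there was 1 library per group and no replicate. One label describes the control tissue as intact cortex, while another describes forebrain hemispheres for every condition. The lesion of this occlusion lies in parietal cortex and takes up little of the hemisphere, and which nuclei came from the infarct or its border was not recorded in the tables used here.

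Intermediate filaments are rope-like polymers of the cytoplasm. Astrocytes build them from GFAP and vimentin, to which nestin and synemin are added as partners that do not form filaments well alone, and a gain of GFAP and vimentin is the textbook sign of reactive astrocytes. Neurons build theirs from the light, medium and heavy neurofilament chains and alpha-internexin, which fill the axon, set its calibre and are released into blood and cerebrospinal fluid when axons are damaged. These proteins and most of their mRNA reside outside the nucleus, so nuclei hold only part of the signal.

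The assay was droplet single-nucleus RNA-seq with unique molecular identifiers (UMIs), counting exonic and intronic reads. The libraries held 23285489 to 42963698 UMIs, and 7771 nuclei were kept: 2114, 1018, 3070 and 1569 in the sham control, day 1, day 3 and day 7 libraries. Median depth ran from 5442 to 11029.5 UMIs per nucleus, and was highest on day 1. Pairs of libraries shared 0 to 3 nucleus barcodes. The breakdown of nuclei by time point given with the study matched the deposited libraries only when the day 3 and day 7 libraries were exchanged. The deposited labels were kept, so "day 3" and "day 7" below mean the libraries labelled so, and every order between those days rests on the labels. Nuclei were clustered without the 8 genes and classes were named from marker genes that hold none of them. These markers named the classes, so their sums describe the classes and do not test the naming. The 13 astrocyte markers summed to 18640 to 22080 CPM in astrocyte-like nuclei, none of them at 0, against 746.9 to 955.8 CPM in pooled neurons. Not every class was as far apart. In sham control, endothelial-like nuclei held mural markers at 6130 CPM and astrocyte markers at 3409 CPM, beside endothelial markers at 18070 CPM. Of 30 clusters, 4 with 1287 nuclei stayed unnamed, among them a cluster of 183 nuclei, here the Ttr-led cluster. Its leading genes were Ttr, Hspa1a, Hspa1b and Otx2os1, followed by 6 mitochondrial genes. By marker score it was closest to choroid plexus cells, the epithelium that makes cerebrospinal fluid, and the mitochondrial genes kept it unnamed.

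Levels are given in CPM, the UMIs of a gene divided by all UMIs of the class in that library on the usual CPM scale, with exact 95% Poisson intervals in parentheses, and ratios carry exact conditional binomial intervals. These intervals cover counting error only, and say nothing of the spread between mice. They take UMIs as independent, so they also leave out the spread between nuclei where the UMIs of a gene lie in few nuclei. With 1 library per group no test of a condition was possible, and no p-value is given. A gene was called higher or lower in a class when its CPM ratio was at least 2-fold and both libraries together held at least 20 UMIs. The 3 ratios to sham control share the same sham control library. Values given in order of time are those of sham control, then the libraries of 1, 3 and 7 days.

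In the GRCm38 annotation (GENCODE vM21), all 8 genes are protein coding. Gfap lies at chr11:102887336-102900912 on the minus strand, Vim at chr2:13573927-13582826 on the plus strand, Nes at chr3:87971078-87980451 on the plus strand and Synm at chr7:67730160-67759742 on the minus strand. Nefl lies at chr14:68083863-68089095 on the plus strand, inside the span of Nefm at chr14:68082590-68124846 on the minus strand. Nefh lies at chr11:4938754-4948064 on the minus strand and Ina at chr19:47014698-47025327 on the plus strand. Of the 8, 5 overlap another annotated gene: Gfap with Gm26668, Synm with Ttc23 and Gm45102, Nefl and Nefm with each other, Nefm also with Gm19216, and Ina with Nt5c2. Each of these overlaps lies between opposite strands, so it matters only if the counting did not use strand. The counting settings listed in the study's methods name none for strand. The counts of these 5 genes, and the division of reads between Nefl and Nefm, are uncertain to that extent.

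Gfap and Vim were the members called higher in astrocyte-like nuclei on day 3, and their proximal promoters are shown because the pair differ in sequence. RefSeq promoters (GRCm38.p6) were at hand for 5 members, Gfap, Vim, Nes, Synm and Ina, and not for Nefl, Nefm and Nefh. The 250 bases before the RefSeq start are given 5′ to 3′ along each gene, from chr11:102897201-102897450 (minus strand) for Gfap and from chr2:13574061-13574310 (plus strand) for Vim, both inside the annotated span of the gene. Capitals mark matches, on either strand, to the CCAAT box (CCAAT) and the TATA box (TATAAA).
Gfap: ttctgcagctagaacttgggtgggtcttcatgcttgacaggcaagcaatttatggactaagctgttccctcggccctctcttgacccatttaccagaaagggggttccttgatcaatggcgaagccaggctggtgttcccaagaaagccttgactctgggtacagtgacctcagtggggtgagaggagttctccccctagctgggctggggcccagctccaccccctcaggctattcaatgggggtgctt
Vim: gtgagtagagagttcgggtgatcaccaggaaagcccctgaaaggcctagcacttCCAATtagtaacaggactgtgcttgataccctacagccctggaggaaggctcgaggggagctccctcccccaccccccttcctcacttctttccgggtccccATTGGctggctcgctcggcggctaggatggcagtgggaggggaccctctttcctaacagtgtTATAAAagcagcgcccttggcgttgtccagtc

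The Vim window held CCAAT first at base -196 from the start and TATAAA at -32. Over 32851 RefSeq promoter windows of this length, 33.9% held CCAAT and 12.4% held TATAAA. The Gfap window held neither, nor the GC box (GGGCGG), which 32.7% of windows held. The AP-1 motif (TGANTCA) and a STAT motif (TTCNNNGAA), both searched on both strands, were in none of the 5 windows, against 6.75% and 7.02% of all windows. Nes and Ina windows held the GC box, and Synm held CCAAT. No motif searched overlapped another in these windows. These matches describe the letters of the windows alone.

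The 4 glial and vascular members were spread over different classes, as the plot of levels by class shows. Gfap was led by astrocytes among the named classes: astrocyte-like nuclei, with 3.35% of all UMIs in nuclei, held 39.9% of its 2450 UMIs (interval 38.0 to 41.9%). Vim and both of its partners were highest in endothelial-like nuclei. That class, 139 nuclei with 1.15% of all UMIs, held 33.9% of the Vim UMIs, 53.9% of the Nes UMIs and 36.0% of the Synm UMIs, while astrocyte-like nuclei held 18.2% of Vim. Unnamed clusters also carried Gfap, and in the Ttr-led cluster its level, 475 CPM over the 4 libraries, lay beside the 456 CPM of astrocyte-like nuclei. Gfap there was 263, 209, 613 and 728 CPM in order of time, so day 7 was highest, with an interval (620 to 848 CPM) that overlapped that of day 3 (546 to 686 CPM). Its ratios to sham control were 0.794, 2.33 and 2.77, and those of Vim 1.18, 5.72 and 4.89. The sham control base of these ratios rested largely on 1 nucleus, with 32 of the 72 Gfap UMIs and 6 of the 11 Vim UMIs, without which it moved from 263 to 149 CPM for Gfap and from 40.2 to 18.6 CPM for Vim. On day 7, 18 of the 44 Vim UMIs were in 1 nucleus. Both genes were called higher on day 3 and day 7, against 13.3 and 12.8% of all genes of the cluster.

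**Figure D1:**
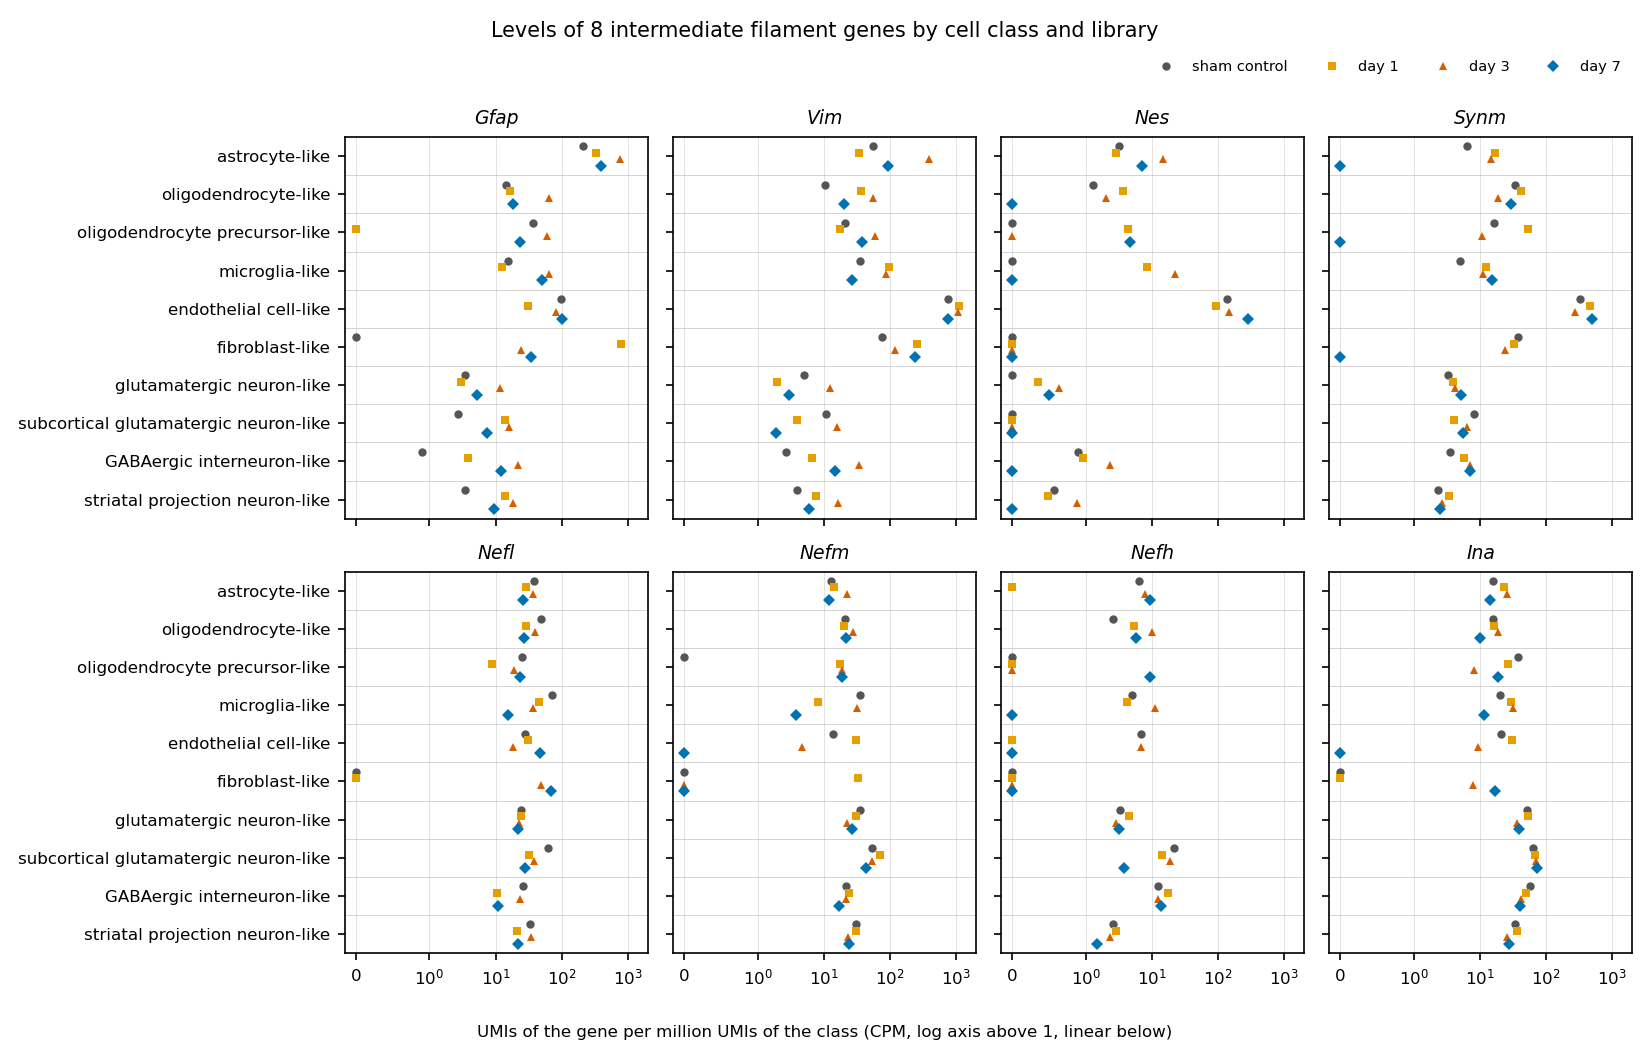
Level of each of the 8 genes (CPM, log axis) in each class of nuclei, with 1 point per library. Summed over libraries, Gfap was highest in astrocyte-like nuclei among the named classes, and Vim, Nes and Synm in endothelial-like nuclei, while the 4 neuronal genes were counted in neurons and also in glia, where Nefl in part did not exceed free RNA.

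Gfap encodes the main filament protein of mature astrocytes. In astrocyte-like nuclei (142, 53, 211 and 68 nuclei in order of time) its level was 206 CPM (172 to 245, 129 UMIs) in the sham library, 333 CPM (275 to 399, 116 UMIs) on day 1, 758 CPM (697 to 823, 568 UMIs) on day 3 and 391 CPM (333 to 455, 165 UMIs) on day 7. Sham control was lowest and its interval overlapped none of the others, day 3 was highest, and the intervals of day 1 and day 7 overlapped. The ratio to sham control was 1.61 (1.24 to 2.09) on day 1, 3.67 (3.03 to 4.48) on day 3 and 1.89 (1.49 to 2.40) on day 7. The level on day 7 was 0.515 times that on day 3 (0.430 to 0.614). The ratios depended on how nuclei were weighted. With each nucleus given equal weight they were 5.03, 4.88 and 2.40 after 1, 3 and 7 days, and with each nucleus thinned to 1000 UMIs 6.70, 5.78 and 3.31. In both cases day 1 was above day 3, so the place of day 3 as the highest holds for the summed UMIs and not for these weightings.

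Vim encodes vimentin, which copolymerises with GFAP in reactive and immature astrocytes. Its level in astrocyte-like nuclei was 56.0 CPM (39.0 to 77.9, 35 UMIs) in the sham library, 34.4 CPM (17.8 to 60.1, 12 UMIs) on day 1, 387 CPM (344 to 434, 290 UMIs) on day 3 and 94.7 CPM (67.7 to 129, 40 UMIs) on day 7. Only the day 3 interval lay clear of the other 3 libraries. The ratio to sham control was 0.615 (0.291 to 1.21) on day 1, 6.91 (4.86 to 10.1) on day 3 and 1.69 (1.05 to 2.74) on day 7. With equal weight to nuclei the day 1 ratio was 1.27, on the other side of 1. Thus in the summed UMIs on day 1 the Gfap interval lay above 1 while that of Vim included 1. From day 3 to day 7 Vim changed by a ratio of 0.245 (0.171 to 0.341), whose interval lay below that of Gfap.

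**Figure D2:**
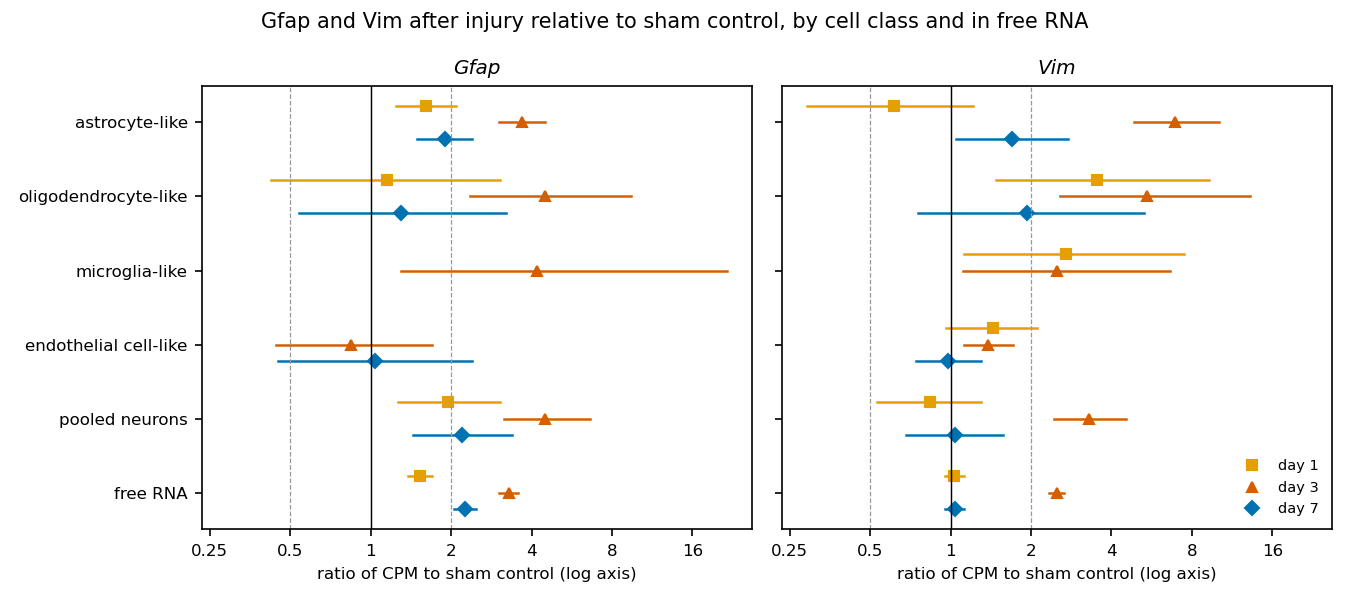
Ratio to the sham control library (log axis, with exact 95% counting intervals) of Gfap and Vim in each class and in free RNA after 1, 3 and 7 days. In astrocyte-like nuclei on day 3 the ratio was 3.67 for Gfap and 6.91 for Vim.

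The 2 partner genes were near the limit of counting in astrocyte-like nuclei. Nes, which encodes nestin, a filament protein of progenitors and of some vessels, had 2, 1, 11 and 3 UMIs in sham control, day 1, day 3 and day 7. At day 3, 5 of the 11 were in 1 nucleus, without which the level moved from 14.7 to 8.14 CPM. Synm, which encodes synemin, a protein that ties filaments to other structures of the cell, had 4, 6, 11 and 0 UMIs. The count of 0 on day 7 allows a level of up to 7.10 CPM (3 counts), above the 6.40 CPM seen in sham control, so no difference from sham control was detectable at this depth. The limit was below the 14.7 CPM of day 3 and the 17.2 CPM of day 1, and the interval of the ratio of day 7 to day 3 reached up to 0.707.

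Among the members with enough UMIs in astrocyte-like nuclei, 0 of 3 were past the fold on day 1, 2 of 5 (Gfap and Vim) were higher on day 3, and 0 of 3 were past it on day 7. Over all genes of this class, 3.24% were called higher and 6.99% lower on day 1, 3.35% and 4.70% on day 3, and 3.28% and 6.77% on day 7. The median log2 ratio of the members with enough UMIs was -0.42, 0.83 and 0.76 at the 3 times, against -0.09, -0.04 and -0.08 over all genes. Nefl, Nefm and Ina, which were among the 5 members on day 3, were not past the fold there. The 11 endothelial markers summed to 28.7 to 85.5 CPM in the first 3 libraries and 255.7 CPM on day 7 in these nuclei, and their part in the Vim levels was not tested. The 13 microglia markers summed to 131.2, 220.9, 363.2 and 577.6 CPM there in order of time, with 1, 1, 0 and 0 of them at 0, and the 14 striatal projection neuron markers to 1535, 1013, 771.7 and 745.7 CPM, with none at 0. Neither list was highest on day 3. Lists that were highest there on day 3, as Gfap and Vim were, include the 10 choroid plexus markers at 371.2, 298.4, 456.6 and 203.6 CPM (4, 6, 0 and 2 at 0), the 10 ependymal markers at 32.0, 22.9, 48.1 and 14.2 CPM (1, 3, 1 and 5 at 0) and the 8 border macrophage markers at 9.6, 14.3, 22.7 and 11.8 CPM (4, 6, 3 and 5 at 0). The part of these lists in the Gfap and Vim levels was not tested. The mitochondrial share of their UMIs was 1.18, 0.80, 2.09 and 2.56% in order of time, and its part in these levels was not tested either.

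The gain of Gfap appeared both in the share of nuclei with a UMI and in a few nuclei with many. With each nucleus thinned to 1000 UMIs, 7.75% of astrocyte-like nuclei had a Gfap UMI in sham control (3.93 to 13.4%, exact binomial), 26.4% (15.3 to 40.3%) on day 1, 27.0% (21.1 to 33.5%) on day 3 and 20.6% (11.7 to 32.1%) on day 7. Sham control was lowest, its interval overlapped that of day 7 but not those of day 1 and day 3, and the 3 days after MCAO could not be ordered. Unthinned, the shares were 22.5, 41.5, 46.9 and 36.8%. For Vim the thinned shares were 4.93% (2.00 to 9.89%) in the sham library, 3.77% (0.46 to 13%) on day 1, 13.3% (9.0 to 18.6%) on day 3 and 5.88% (1.63 to 14.4%) on day 7, so day 3 was highest and all 4 intervals overlapped. Unthinned, they were 11.3, 17, 27.0 and 22.1%. In pooled neurons, which do not normally make GFAP, the thinned Gfap share was 0.0935% in the sham library, 0.769% on day 1, 1.66% on day 3 and 0.870% on day 7, and the unthinned shares were 2.90, 7.88, 10.8 and 5.96%. The median depth was 2987.5, 5340, 2793 and 3705 UMIs in astrocyte-like nuclei and 9093, 15286, 8364.5 and 10054 UMIs in neurons.

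Gfap UMIs were concentrated in few nuclei. The 15, 6, 22 and 7 nuclei with most Gfap (10% of astrocyte-like nuclei, rounded up) held 86.1% of its UMIs in sham control, 69.8% on day 1, 71.0% on day 3 and 75.2% on day 7, and the median nucleus held 0 in each library. The highest single nucleus held 35, 25, 82 and 26 UMIs. Vim was counted beside Gfap: of nuclei with Gfap, 34.4% in the sham library, 18.2% on day 1, 40.4% on day 3 and 52.0% on day 7 also had Vim, against 4.55, 16.1, 15.2 and 4.65% of those without. The plot of nuclei by co-detection gives the counts, with 40 nuclei holding both genes on day 3 and 11 in sham control. Nuclei with Gfap were deeper in sham control (median 4970 against 2827 UMIs), on day 3 (3432 against 2382.5) and on day 7 (9200 against 3019), and shallower on day 1 (4548 against 5354). The part of depth in this pairing was not tested beyond thinning, after which the day 3 shares were 31.6 and 6.49%. At that depth 18 nuclei held both genes on day 3, and 1 or 2 in each of the other libraries.

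Vim, Nes and Synm shared their highest levels among the named classes in endothelial-like nuclei, from the cells that line brain vessels. The class held 39, 6, 73 and 21 nuclei in order of time, so the day 1 values rest on 6 nuclei. The Vim level was 770 CPM (634 to 926) in the sham library, 1107 CPM (775 to 1532) on day 1, 1062 CPM (966 to 1163) on day 3 and 756 CPM (614 to 921) on day 7. Day 3 was above sham control and day 7 with intervals that did not overlap, by a ratio of 1.38 to sham control (1.12 to 1.71), and day 7 was level with sham control at 0.982. The relation of Vim between day 3 and sham control was thus 1.38 in endothelial-like nuclei and 6.91 in astrocyte-like nuclei, with ratio intervals that did not overlap.

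Nes in endothelial-like nuclei stood at 138 CPM (84.0 to 212, 20 UMIs) in the sham library, 92.2 CPM (19.0 to 270, 3 UMIs) on day 1, 149 CPM (114 to 190, 64 UMIs) on day 3 and 285 CPM (201 to 393, 37 UMIs) on day 7. Day 7 was highest, with an interval clear of day 3 and overlapping those of sham control and day 1. Its ratio to sham control was 2.08 (1.17 to 3.77). Synm levels were 323 CPM (237 to 430, 47 UMIs) in the sham library, 461 CPM (258 to 761, 15 UMIs, 10 of them in 1 nucleus, and 200.8 CPM without it) on day 1, 276 CPM (229 to 331, 119 UMIs) on day 3 and 501 CPM (387 to 639, 65 UMIs) on day 7. Its day 7 ratio was 1.55 (1.05 to 2.31), and the intervals of sham control and day 7 overlapped. Thus among the 3 larger libraries Vim stood highest on day 3, and Nes and Synm on day 7.

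Of the members with enough UMIs in endothelial-like nuclei, 0 of 3 were past the fold on day 1, 0 of 4 on day 3 and 1 of 4 (Nes, higher) on day 7. Over all genes of the class 10.1% were called higher on day 1, 10.8% on day 3 and 4.49% on day 7, and 19.3, 4.25 and 6.33% lower. Mural cells lie against these vessels, and their 10 markers summed to 6130, 3320, 3213 and 5660 CPM in endothelial-like nuclei in order of time, with 1, 7, 0 and 0 of them at 0. These markers were lower on day 3 than on day 7, as Nes and Synm were, but highest in sham control. The 13 astrocyte markers had the same order there between these days, at 3409, 922.3, 1245 and 2768 CPM with 0, 6, 0 and 2 at 0. The 13 microglia markers were lowest in sham control and highest on day 7, at 116.8, 368.9, 302.0 and 516.6 CPM with 8, 8, 0 and 4 at 0. Lists higher on day 3 than in sham control and on day 7, as Vim was, include the 8 border macrophage markers, at 61.9, 92.2, 113.8 and 46.3 CPM. They also include the 14 striatal projection neuron markers, at 364.3, 153.7, 696.9 and 339.3 CPM. The part of these lists in the levels was not tested. Over the 139 nuclei, 103 held Vim, and of those 48 also held Nes and 72 Synm, while 5 held Nes and 12 held Synm without Vim. Nuclei with Vim were deeper, with a median of 4010 against 1679 UMIs.

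Other glia held low counts of these genes, which were read against free RNA, the RNA of droplets without a nucleus. The comparison level is the CPM a class would show had each of its nuclei taken up the free UMIs of a typical empty droplet. Oligodendrocyte-like nuclei, the myelin-forming glia, had Gfap at 14.2 CPM (11 UMIs) in the sham library, 16.4 CPM (9 UMIs) on day 1, 64.2 CPM (64 UMIs) on day 3 and 18.5 CPM (13 UMIs) on day 7, against free RNA levels of 7.58, 11.4, 31.3 and 15.5 CPM. Vim there was 10.4, 36.5, 56.1 and 20.0 CPM against 14.1, 14.2, 44.1 and 13.2 CPM. The class and its free RNA level thus were both highest on day 3, at ratios of 4.5 (2.36 to 9.47) for Gfap and 5.42 (2.57 to 13.2) for Vim in the nuclei. Gfap on day 3 (49.4 to 81.9 CPM) and Vim on day 1 (22.3 to 56.4 CPM) were above the free RNA level by their intervals, and the other 6 values, whose intervals reached it, are not read as expression. The 13 astrocyte markers summed to 654.4, 447.0, 875.3 and 675.9 CPM there in order of time, highest on day 3 as Gfap was. So were the 11 endothelial markers, at 64.8, 18.2, 77.2 and 45.6 CPM. The 10 choroid plexus markers, at 668.6, 498.1, 654.7 and 350.8 CPM, were not. The part of these lists in both genes was not tested.

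Synm in oligodendrocyte-like nuclei, unlike Gfap and Vim there, was lowest on day 3. It was 33.7 CPM (22 to 49.4) in the sham library, 42.0 CPM (26.6 to 63.0) on day 1, 19.1 CPM (11.5 to 29.8) on day 3 and 29.9 CPM (18.5 to 45.8) on day 7, against free RNA levels of 2.69 to 3.54 CPM. Every library was above the free RNA level by its interval, and the 4 intervals overlapped. Of the members with enough UMIs in this class, 1 of 6 was called higher on day 1 (Vim), 2 of 6 (Gfap and Vim) on day 3 and 0 of 5 on day 7, against 3.11, 3.71 and 2.33% of all genes. With 8 UMIs in sham control, Vim could reach 20 UMIs on day 1 only past 2-fold, so that call was fixed by the filter.

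In microglia-like nuclei, the resident immune cells, Vim had 7, 23, 39 and 7 UMIs in order of time. At day 1, 18 of the 23 were in 1 nucleus, and its ratio to sham control, 2.71 with that nucleus, was 0.835 when the top nucleus of each library was left out. Gfap there had 3, 3, 28 and 13 UMIs, or 63.6 CPM (42.3 to 92.0) on day 3 against a free RNA level of 30.8 CPM. The 13 astrocyte markers summed to 666.6, 416.5, 947.5 and 982.3 CPM in these nuclei, highest on day 7. The 11 endothelial markers, at 70.7, 62.5, 245.4 and 49.5 CPM, were highest on day 3. The 11 oligodendrocyte markers, at 2141, 1979, 1629 and 2269 CPM, were lowest on day 3. The part of these lists in the Gfap and Vim UMIs was not tested. With enough UMIs, 1 of 2 members was called higher on day 1 (Vim) and 2 of 4 (Gfap and Vim) on day 3, against 8.44 and 7.74% of all genes. Oligodendrocyte precursor-like nuclei had Vim at 22 UMIs on day 3, a ratio of 2.85 to sham control (1.05 to 9.64) that rested on 5 UMIs in sham control, and 10 of the 22 were in 1 nucleus. There 1 of 2 members was called higher on day 3, against 6.08% of all genes.

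The neurofilament genes were measured in pooled neurons, 3904 nuclei of the glutamatergic-like, subcortical glutamatergic-like, interneuron-like and striatal projection neuron-like classes, with 69.9% of all UMIs in nuclei. They held 60.0% of the Nefl UMIs, 71.0% of Nefm, 62.2% of Nefh and 72.7% of Ina. The shares of Nefm and Ina were near or above the neurons' share of all UMIs, and those of Nefl and Nefh below it. Thus, per UMI, Nefl was not set apart in neuronal nuclei: it was 24.8 CPM in pooled neurons, 37.1 CPM in oligodendrocyte-like and 34.0 CPM in astrocyte-like nuclei over all libraries. In oligodendrocyte-like nuclei the free RNA level of Nefl was 20.9 to 30.0 CPM, beside levels of 27.1 to 49.2 CPM, and only the sham control interval (34.9 to 67.6 CPM) lay above it. In astrocyte-like nuclei it was 9.29 to 19.5 CPM, beside levels of 26.0 to 38.4 CPM, and the day 1 interval (13.8 to 52.8 CPM) reached it. In neurons it was 4.89 to 7.11 CPM.

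Nefl encodes the light chain, the core of the neurofilament and the one used as a marker of axon damage in body fluids. Its level in pooled neurons was 28.3 CPM (25.3 to 31.6) in the sham library, 22.3 CPM (19.3 to 25.5) on day 1, 26.2 CPM (23.7 to 29.0) on day 3 and 21.0 CPM (18.2 to 24.2) on day 7. Sham control was highest, and its interval was clear of day 7 and overlapped the others. The ratio to sham control was 0.787 on day 1, 0.927 on day 3 and 0.744 on day 7. In striatal projection neuron-like nuclei, the output cells of the striatum, Nefl was 32.7, 20.9, 34.6 and 21.7 CPM in order of time, so sham control and day 3 were high and day 1 and day 7 low. The intervals of the high and low libraries overlapped at their ends, except that day 3 was clear of day 1. In glutamatergic-like nuclei, the excitatory cells of the cortex and hippocampus, it stayed between 21.9 and 24.3 CPM, with overlapping intervals.

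Nefm encodes the medium chain. Its level in pooled neurons was 33.0 CPM (29.8 to 36.6) in the sham library, 31.8 CPM (28.3 to 35.7) on day 1, 23.9 CPM (21.5 to 26.5) on day 3 and 26.1 CPM (22.9 to 29.5) on day 7. Day 3 and day 7 were below sham control with intervals that did not overlap it, at ratios of 0.723 and 0.789. Ina encodes alpha-internexin, which joins the light and medium chains in filaments of the central nervous system. It was 46.9 CPM (43.0 to 51.0) in the sham library, 50.6 CPM (46.1 to 55.4) on day 1, 35.9 CPM (32.9 to 39.1) on day 3 and 38.6 CPM (34.8 to 42.8) on day 7. Ina followed the order of Nefm between early and late libraries: sham control and day 1 were high, day 3 and day 7 low, with no overlap between these pairs. Its ratios were 1.08, 0.766 and 0.823. None of these differences reached 2-fold.

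Nefh encodes the heavy chain, made late in development and enriched in large myelinated axons. It was 4.58 CPM (3.42 to 6.01) in the sham library, 6.08 CPM (4.59 to 7.90) on day 1, 4.29 CPM (3.30 to 5.49) on day 3 and 4.00 CPM (2.83 to 5.49) on day 7, and these intervals overlapped. Gfap in pooled neurons was 3.17, 6.19, 14.3 and 6.94 CPM in order of time against free RNA levels of 1.71, 2.22, 7.42 and 3.62 CPM, and Vim was 4.67, 3.91, 15.5 and 4.84 CPM against 3.18, 2.77, 10.5 and 3.1 CPM. Both genes and their free RNA levels were highest on day 3, and the intervals lay above the free RNA level for each value except that of Vim on day 1. The 13 astrocyte markers were at 955.8, 746.9, 870.9 and 800.4 CPM in the same nuclei, with none at 0, and were not highest on day 3. Lists that were highest on day 3 there, as Gfap and Vim were, include the 8 border macrophage markers at 6.96, 7.28, 12.1 and 6.84 CPM (4, 0, 0 and 2 at 0), the 11 oligodendrocyte markers at 244.1, 230.7, 312.8 and 299.2 CPM and the 11 endothelial markers at 17.4, 22.8, 25.7 and 13.5 CPM, the latter lists with none at 0. The part of these lists in the Gfap and Vim counts was not tested. The mitochondrial share of UMIs in pooled neurons was 0.128, 0.197, 0.225 and 0.171% in order of time, also highest on day 3. Its part was not tested either.

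Of the members with enough UMIs in pooled neurons, 0 of 7 were past the fold on day 1, 2 of 7 (Gfap and Vim) were higher on day 3 and 1 of 7 (Gfap) on day 7, and 0 were lower at any time. The Gfap call on day 7, at a ratio of 2.19 (1.44 to 3.38), was lost with doublets kept, at 1.99. Over all genes 3.54, 1.64 and 2.51% were called higher and 1.10, 1.41 and 1.84% lower. The median log2 ratio of the 7 was 0.11, -0.09 and -0.20. All 4 neurofilament genes were thus within 2-fold of sham control at each time in the pooled class, though not in each subclass given next.

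**Figure D3:**
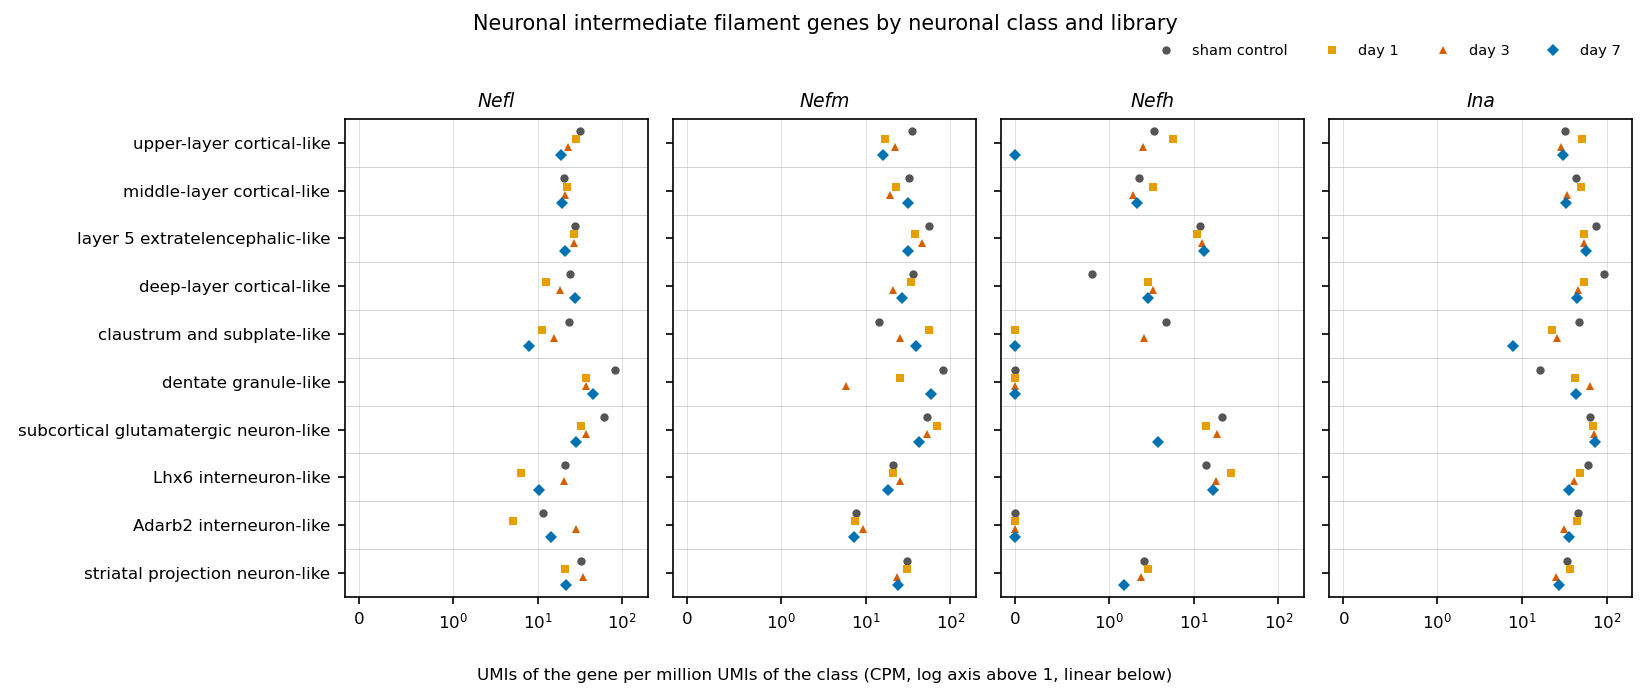
Levels of Nefl, Nefm, Nefh and Ina (CPM) in subclasses of neurons, with 1 point per library. Nefh was highest in Lhx6 interneuron-like nuclei, subcortical glutamatergic-like nuclei and layer 5 extratelencephalic-like nuclei, and at 0 in Adarb2 interneuron-like and dentate granule-like nuclei.

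The neuronal members also differed between types of neuron, Nefh among them. Lhx6 interneuron-like nuclei came from 2 clusters of inhibitory cells, and a cluster of 51 nuclei with Pvalb among its leading genes was in neither interneuron subclass. In Lhx6 interneuron-like nuclei Nefh was 13.9 CPM (6.65 to 25.5) in the sham library, 27.2 CPM (14.5 to 46.5) on day 1, 18.1 CPM (10.1 to 29.8) on day 3 and 16.8 CPM (8.94 to 28.7) on day 7. In layer 5 extratelencephalic-like nuclei, the long-range projection cells of the cortex, it was 10.8 to 13.1 CPM. In striatal projection neuron-like nuclei it was 2.58, 2.91, 2.37 and 1.48 CPM, with intervals below those of Lhx6 interneuron-like nuclei in each library. Subcortical glutamatergic-like nuclei had 21.4, 14.1, 18.9 and 3.74 CPM, with 8, 7, 12 and 2 UMIs, so the last value rests on few counts.

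Nefh was counted at 0 in all 4 libraries in Adarb2 interneuron-like nuclei (129 nuclei) and dentate granule-like nuclei (113 nuclei). In dentate granule-like nuclei, only 5 of which came from sham control, a count of 0 allows a level of up to 48.6, 8.52, 8.65 and 5.66 CPM in order of time (3 counts each). In Adarb2 interneuron-like nuclei it allows a level of up to 11.6 CPM in the sham library, 7.56 CPM on day 1, 9.33 CPM on day 3 and 21.6 CPM on day 7. The day 1 limit was below the lower bound for Lhx6 interneuron-like nuclei, also when taken as the upper end of the exact 95% interval, 9.30 CPM. That of day 3 was below it as 3 counts but not as the end of the interval, 11.5 CPM, and those of sham control and day 7 were not below it. The 2 interneuron subclasses had Ina at like levels, 45.7 CPM in Lhx6 and 40.4 CPM in Adarb2 interneuron-like nuclei over the 4 libraries, with ranges over libraries that overlapped. Nefm was 18.1 to 25.3 CPM in the former and 7.21 to 9.33 CPM in the latter, where it rested on 1 to 3 UMIs per library.

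Ina and Nefm were highest among named neurons in subcortical glutamatergic-like nuclei, which include thalamic cells. Ina was 64.3, 68.3, 70.8 and 73.0 CPM there in order of time, with overlapping intervals, and Nefm 53.6, 70.3, 53.5 and 43.1 CPM. Layer 5 extratelencephalic-like nuclei came next for both, with Ina at 54.0 to 75.7 CPM and Nefm at 31.1 to 55.8 CPM, ranges that overlapped those of the subcortical class. Deep-layer cortical-like nuclei had Ina spread widely over libraries, with 94.3 CPM (78.0 to 113) in the sham library, 53.9 CPM (40.7 to 69.9) on day 1, 46.2 CPM (36.9 to 57.1) on day 3 and 45.1 CPM (33.1 to 59.9) on day 7. Sham control was clear of the other 3 libraries there, and the ratios to it, 0.489 (0.365 to 0.653) on day 3 and 0.478 (0.333 to 0.676) on day 7, were past the fold, against 2.06 and 3.38% of all genes called lower. In upper-layer cortical-like nuclei Nefm was past it as well, at 34.8 CPM (41 UMIs) in the sham library, 16.8 CPM (18 UMIs) on day 1, 22.1 CPM (35 UMIs) on day 3 and 16.1 CPM (12 UMIs) on day 7. Its ratios were 0.484 (0.261 to 0.861) on day 1 and 0.462 (0.221 to 0.895) on day 7, against 3.20 and 4.21% of all genes. The other neurofilament calls against sham control in subclasses had intervals that included 1: Nefl in Lhx6 interneuron-like nuclei, lower on day 7 against 3.95% of all genes, and Ina in dentate granule-like nuclei, higher on day 3 and day 7 from 1 UMI in sham control, against 13.7 and 17.4%. Striatal projection neuron-like nuclei were lowest of the broad neuronal classes for Ina, at 25.5 to 36.9 CPM.

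Within broad neuronal classes, 2 neurofilament calls against sham control were made in interneuron-like nuclei: Nefl at a ratio of 0.410 (0.185 to 0.846) on day 1 and 0.426 (0.192 to 0.878) on day 7, from 29 UMIs in sham control and 11 in each later library. At day 3 it was 0.910 (0.528 to 1.57). Over all genes of this class, 2.03% were called lower on day 1 and 3.70% on day 7. Nefl was also called lower in subcortical glutamatergic-like nuclei on day 7, at 0.456 (0.221 to 0.912), against 4.04% of all genes. Gfap and Vim were called higher on day 3 in interneuron-like nuclei, against 1.87% of all genes, from 1 and 3 UMIs in sham control to 28 and 44 UMIs, which held 14 and 21 UMIs of a single nucleus of 56841 UMIs. Without it their levels were 11.5 and 18.9 CPM in place of 22 and 34.6 CPM, beside free RNA levels of 8.84 and 12.5 CPM. In striatal projection neuron-like nuclei Gfap was called higher at each time, with 12, 29, 61 and 19 UMIs in order of time and ratios of 4.09, 5.25 and 2.72, against 3.46, 1.60 and 1.73% of all genes. Vim was called higher there on day 3, at 4.13 (2.27 to 8.04, from 14 to 56 UMIs). The free RNA levels there were 1.87, 2.53, 8.25 and 4.17 CPM for Gfap in order of time and 11.6 CPM for Vim on day 3, and each called level lay above its own by its interval. In glutamatergic-like nuclei Vim was called lower on day 1, at 0.390 (0.177 to 0.794, from 32 to 11 UMIs), against 1.62% of all genes. The day 1 level, with an interval of 0.979 to 3.51 CPM, reached the free RNA level of 2.60 CPM and is not read as expression. On day 3 both Gfap, at 3.42 (2.15 to 5.68, 111 UMIs), and Vim, at 2.48 (1.66 to 3.79, 117 UMIs), were called higher in this class, against 1.82% of all genes. Their levels, 11.8 and 12.5 CPM, stood beside free RNA levels of 6.99 and 9.85 CPM, which the intervals did not reach.

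The unnamed cluster of 872 nuclei led by Baiap3, closest by markers to interneurons, had Nefh at 9.30 CPM (19 UMIs) in the sham library, 9.56 CPM (16 UMIs) on day 1, 2.26 CPM (5 UMIs) on day 3 and 7.91 CPM (12 UMIs) on day 7. The day 3 ratio, 0.243 (0.0709 to 0.672), was called lower, against 2.17% of all genes. Gfap at 2.08 and Vim at 3.08 were called higher there on day 3, against 1.08% of all genes, with intervals that reached the free RNA levels of 9.81 and 13.8 CPM. Gfap was also called higher on day 7, at 2.13 (0.982 to 4.81), against 1.72%.

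Most UMIs of these genes were outside the called nuclei, as the plot of shares in nuclei shows. Nuclei held 60.4% of all UMIs in sham control, 56.3% on day 1, 51.7% on day 3 and 54.6% on day 7, but only 18.0, 13.4, 14.8 and 14.0% of the Nefl UMIs. Among genes with at least 100 UMIs in a library, this put Nefl at percentiles 3.78, 3.64, 2.16 and 2.94. Vim was at 18.6, 14.5, 20.0 and 19.3%, and Gfap at 29.5, 27.2, 23.3 and 21.7%. Ina (31.3 to 41.4%), Synm (35.9 to 39.0%) and Nes (33.8 to 43.2%) were held in nuclei more. All 8 were below the median gene, which was 59.2, 55.2, 51.1 and 52.6%. Vim, Nes, Nefl and Nefh span at most 10 kb, and genes of that span had medians of 34.0, 27.3, 30.2 and 28.4%. The other 4 members span over 10 to 50 kb, where the medians were 56.0, 51.6, 48.3 and 49.3%.

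Free RNA, from barcodes of at most 1000 UMIs, carries cytoplasmic mRNA from the whole tissue and does not depend on the naming of classes. There Gfap was 59.6 CPM (55.1 to 64.3) in the sham library, 91.2 CPM (85.3 to 97.4) on day 1, 196 CPM (189 to 202) on day 3 and 134 CPM (127 to 141) on day 7. All 4 intervals were apart, and the ratios were 1.53, 3.28 and 2.25. Vim was 111, 114, 276 and 115 CPM, so day 3 alone stood apart, at a ratio of 2.49 (2.34 to 2.65). Nes followed Vim, at 5.83, 4.5, 12.2 and 5.56 CPM and a day 3 ratio of 2.10 (1.59 to 2.81), and Synm stayed between 21.6 and 24.5 CPM. In a whole-tissue value of this kind, more cells of a type and more RNA per cell cannot be told apart.

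The neurofilament genes in free RNA moved less. Nefl was 212 CPM (204 to 221) in the sham library, 224 CPM (215 to 234) on day 1, 187 CPM (181 to 194) on day 3 and 181 CPM (173 to 189) on day 7, with sham control and day 1 above day 3 and day 7. Nefm had the same order of pairs, at 134, 130, 108 and 109 CPM. Ina was 94.9, 106, 84.0 and 88.1 CPM, and Nefh 22.4, 28.9, 23.5 and 24.7 CPM. In free RNA, 0 of the 8 members were called on day 1, 3 (Gfap, Vim and Nes) were higher on day 3 and 1 (Gfap) on day 7. Over all genes 3.45, 2.83 and 3.45% were called higher and 1.68, 1.92 and 1.41% lower.

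A list of 34 genes linked to these filaments (other filament and lamin genes, cross-linking plakins, chaperones, kinases and microtubule genes), of which 33 were in the files, was counted beside the members. In astrocyte-like nuclei its median log2 ratio was -0.48, 0.04 and 0.10 after 1, 3 and 7 days. At day 1, 1 of 15 with enough UMIs was lower, S100b, a calcium-binding protein of astrocytes, at a ratio of 0.448 (0.260 to 0.739), beside 6.99% of all genes. At day 3, 0 of 16 were higher, beside 3.35%. At day 7, the lamin gene Lmna was lower at a ratio of 0.352 (0.104 to 0.960), and 1 of 16, Kif5a, a neuronal kinesin, was higher at 2.09 (1.41 to 3.12), beside 3.28%. Not every lower gene of the list is given for day 3 and day 7, so no count of lower genes is read there. S100b had 20 UMIs on day 1 and Lmna 5 UMIs on day 7.

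In pooled neurons the median of the linked genes was 0.07, -0.03 and -0.14. At day 1, 2 of 25 were higher: Hspb1, a small heat shock protein that binds filaments, at 6.71 (3.26 to 15.5, from 9 to 49 UMIs), and the plakin gene Ppl at 2.57 (1.54 to 4.43). At day 3, 0 of 25 were called, and on day 7, 1 of 23 was higher, the beaded filament gene Bfsp2, at 2.71 (1.43 to 5.35). Over all genes 3.54, 1.64 and 2.51% were called higher at these times. None of the linked genes was lower.

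Over the 37 points of class and library with at least 20 nuclei, the genes most like each member in log2(CPM + 10) by Pearson correlation were taken from 12827 genes. The points share libraries, depth and free RNA, so the values are a description. Gfap was nearest to Acsbg1 (0.916), an acyl-CoA synthetase gene that was one of the astrocyte markers, then Tst and Fxyd1. Vim was nearest to ribosomal protein genes (Rpl13a at 0.945, then Rps15 and Rpl23), and Nes to Mecom (0.962), an endothelial marker, then Tagln2 and Pltp. Synm was nearest to Pltp (0.907), Ina to Cacng2 (0.868), Nefm to Gm26724 (0.874), Nefh to 9330158H04Rik (0.686) and Nefl to Lhpp (0.617). Among the members, Vim and Nes were at 0.86, Nes and Synm at 0.86, Vim and Synm at 0.76, Nefm and Ina at 0.74 and Gfap and Vim at 0.69.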

How the data were processed

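The authors deposited raw UMI counts of 4 libraries, with no filter on barcodes. Per the submitters' processing notes reads were aligned with STAR 2.7.3a to GRCm38, and per the study's methods reads over whole genes, introns included, were counted. No column of another sample was used.

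Nuclei were called against free RNA (barcodes of at most 1000 UMIs) at a false discovery rate of 0.001 with 10000 Monte Carlo draws, which gave 7915 nuclei, and 144 doublets were removed by simulated doublet scores at an assumed 0.8% per 1000 nuclei. Nuclei kept were 7771. Libraries were integrated and clustered with Seurat 5.3.0 and sctransform 0.4.2 in R 4.3.3, leaving out the 8 members and linked genes, and clusters were named from 247 markers of 17 classes. UMIs were summed per class and library (numpy 2.4.6, scipy 1.17.1) and the call rule was 2-fold with at least 20 UMIs. Free RNA made up an estimated 3.37 to 5.23% of UMIs in nuclei. Total UMIs of 23285489 to 42963698 per library set the counting intervals. The calling and the call rule were tested on simulated data. No simulated empty droplet was called, but many simulated nuclei of few UMIs were missed, most on day 3 and fewest on day 1. Shallow nuclei may thus be missed unequally between libraries, which bears on the shares of UMIs in nuclei. TMM factors for 1 alternative came from edgeR 4.0.16.

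Positions came from GENCODE vM21, in which 46488 of the 46983 identifiers were found. Groups came from the condition label. All 8 members are named in classes of at least 50 nuclei, linked genes when past the fold in astrocyte-like nuclei or pooled neurons, except 2 that were lower in astrocyte-like nuclei and are not reported here, and for each member the 3 genes most like it. Members and lists were chosen with earlier results of these data known. Alternatives were other clusterings, scalings, thinning, weights, free RNA subtraction, call thresholds and leaving out the top nucleus of each library, and, chosen after seeing the data, exchange of the day 3 and day 7 libraries.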

Additional observations from a re-analysis of the deposited data

Results flagged for a closer look

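In the Ttr-led cluster (27, 28, 95 and 33 nuclei from sham control, day 1, day 3 and day 7), Nefl, Nefm and Ina lay on the other side of sham control from a named class in the pairs given next, by intervals that excluded 1 on each side. This did not hold for every pair: Ina at day 1 was at 9.35 there and 1.08 in pooled neurons, and the Nefh intervals of the cluster included 1. The differences between classes were not tested. Nefl at day 7 was at a ratio of 2.24 there, against 0.550 in oligodendrocyte-like nuclei and 0.744 in pooled neurons, and at day 1 at 2.47, against 0.787 in pooled neurons. Nefm at day 3 was at 2.28, against 0.723, and Ina at day 7 at 3.87, against 0.823. The cluster rested on 24, 8 and 6 UMIs of Nefl, Nefm and Ina in sham control, and 9 of the 19 Ina UMIs at day 7 were in 1 nucleus of 49005 UMIs. In this cluster 15.6, 13.3 and 12.8% of all genes were called higher at the 3 times.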

How the results depend on the processing

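No paired analysis was possible because each group was 1 library and the labels carry no replicate numbers, and no replicate could be left out. Of the values that answer a comparison, 219 alternatives stayed within the counting interval or within 1.5 times the count, 41 moved and 0 turned direction, where a turn was counted only for a value past 2-fold. Of the other values 576 stayed, 35 moved and 1 turned: the day 1 Vim ratio of microglia-like nuclei, 0.835 without the top nucleus of each library. Counts, medians and shares could not be labelled as turned, so the first count of turns, 0, was in large part fixed in advance.

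With nuclei thinned to 1000 UMIs, the Gfap ratio in astrocyte-like nuclei was 6.70, 5.78 and 3.31 at day 1, day 3 and day 7. With equal weight to nuclei it was 5.03 at day 1 and 4.88 at day 3, and that of Vim, 0.615 by summed UMIs and not past the fold, was 1.27 at day 1 and 1.15 with thinning. With the day 3 and day 7 libraries exchanged, Gfap was 1.89 and 3.67 and Vim 1.69 and 6.91 at day 3 and day 7. Thinned to 2000 UMIs, 13.9% of nuclei in sham control and 49.0% at day 3 held Gfap. Free RNA from barcodes of at most 100 UMIs gave 2.08, 3.58 and 2.57 for Gfap at the 3 times, and 1.42 and 2.76 for Vim at day 1 and day 3.

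Members called higher in astrocyte-like nuclei at day 1 were 1 with thinning, equal weight, 1.5-fold or at least 10 UMIs, and 1 was lower at 1.5-fold. At day 3 they were 4 at 1.5-fold or at least 10 UMIs and 0 with the libraries exchanged. At day 7 they were 1 with thinning, equal weight or without the top nucleus and 2 at 1.5-fold or exchanged, and 1 was lower with equal weight. In pooled neurons they were 2 at day 1 with thinning, 1 with equal weight, 1.5-fold or either subtraction of free RNA, 1 at day 3 when exchanged, and at day 7 0 with doublets kept and 2 at 1.5-fold or exchanged. The median of linked genes in astrocyte-like nuclei at day 7 was 0.21 at 10 UMIs. Shares of all genes called were computed only at 2-fold with at least 20 UMIs, so counts under other settings have no share beside them. The members added in astrocyte-like nuclei at day 3 with at least 10 UMIs were Nes and Synm. They rest on 2 and 4 UMIs in sham control and 11 each at day 3. The causes of these moves were not tested beyond what each setting itself changes. TMM scaling was run for astrocyte-like, oligodendrocyte-like, microglia-like and endothelial-like nuclei and pooled neurons. Among these it moved the median log2 ratio of all genes by more than 0.1 only in endothelial-like nuclei at day 1. Depth limited Nes outside vessels, Synm in astrocyte-like and microglia-like nuclei, and all members in classes of few nuclei.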

Other observations

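Ependymal-like nuclei (49 nuclei), the ciliated lining of the ventricles, were under the size set for the report. Over the 4 libraries they held Gfap at 356 CPM, Vim at 226 CPM and Synm at 153 CPM. The Gfap value rested on 1 library: at day 1, 129 of 133 UMIs were in 1 nucleus, and the level was 1187 CPM with it and 49.6 CPM without. In fibroblast-like nuclei at day 1 all 24 Gfap UMIs were in 1 of 3 nuclei. Mural-like nuclei (40 nuclei) held Nes at 84.9 CPM and Synm at 0 UMIs over the 4 libraries.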
